A study of Mus musculus with 10 samples.

Results

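The cytosolic ribosomal protein genes were examined in mouse bone marrow-derived dendritic cells, as rows of 6 RNA-seq gene tables whose mouse symbol is an Rpl or Rps name with a number and an optional a, x or l suffix, or is Rpsa, Rplp0, Rplp1 or Rplp2. The rule took 84 of the 41813 rows and left out pseudogene rows. It used symbols and no measured value. Of the 84 genes, 31 encode small-subunit proteins, 43 large-subunit proteins and 3 the P stalk of the large subunit, and 7 are paralogs whose symbol carries an l suffix (Rpl3l, Rpl7l1, Rpl10l, Rpl22l1, Rpl39l, Rps4l and Rps27l). The genes lie on 19 chromosomes, with 14 of them on chromosome 7, and 83 passed the filter on low counts. Rpl10l, a paralog of Rpl10 known from the testis, had a count of 0 in all 6 libraries and was not tested.

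Of the 6 libraries, 3 were titled activated and 3 non-activated, all from cells recorded as positive for CD11c with high MHC class II. According to the series design, LPS (lipopolysaccharide, a bacterial component sensed by TLR4) was given to both groups. The activated cells carried the ovalbumin peptide OVA323-339 and the non-activated cells did not, and both spent 24 h in culture with CD4+ OT-II T cells, which recognise that peptide. The sample labels instead record LPS for the activated cells and no stimulation for the non-activated cells, so the groups are called by their titles. No label gives the strain or age of the mice, or says whether replicates came from different mice or cultures; the p-values below therefore reflect the variation among these 6 samples, which may be technical. The 4 ATAC-seq samples of the series are not analysed here.

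Each ribosome holds one copy of nearly every ribosomal protein, and cells make these proteins in matched amounts. Their mRNAs begin with a C followed by a run of pyrimidines, the terminal oligopyrimidine (TOP) tract, through which mTOR and the RNA-binding protein LARP1 control translation. Dendritic cells that receive a maturation stimulus are known to raise protein synthesis at first and to lower it later. Such control acts largely on translation, which RNA-seq does not measure.

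The start regions of a few members are shown because the tract at the start is the feature these mRNAs are known for. RefSeq on GRCm38.p6 gave a promoter window for 63 of the 84 members. Each sequence below runs 5′ to 3′ on the gene's strand, from 70 bases before the annotated start to the 20 bases that begin at it. Capitals mark the longest pyrimidine tract beginning with C within 10 bases of the start, and the letters CCGGAAG on either strand, the core recognised by ETS factors. Rps6, Rpl15 and Rps10 were chosen as members with a clear tract, and Rps27, Rps27l and Rpl22l1 because the results below turn on them.
Rps6: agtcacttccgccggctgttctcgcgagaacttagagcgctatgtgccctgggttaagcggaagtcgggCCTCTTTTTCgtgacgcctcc
Rpl15: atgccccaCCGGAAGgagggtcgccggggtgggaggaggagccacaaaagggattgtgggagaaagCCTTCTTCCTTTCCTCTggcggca
Rps10: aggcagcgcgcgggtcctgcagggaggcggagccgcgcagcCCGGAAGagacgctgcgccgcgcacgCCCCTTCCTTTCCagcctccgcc
Rps27: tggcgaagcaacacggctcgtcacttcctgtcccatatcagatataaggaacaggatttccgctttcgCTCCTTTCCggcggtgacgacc
Rps27l: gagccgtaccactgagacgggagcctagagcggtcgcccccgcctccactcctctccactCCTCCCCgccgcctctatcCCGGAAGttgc
Rpl22l1: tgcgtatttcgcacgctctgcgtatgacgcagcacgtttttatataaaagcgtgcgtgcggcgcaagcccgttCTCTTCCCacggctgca
These stretches are chr4:86857348-86857437 on the minus strand for Rps6, chr14:18270967-18271056 on the minus strand for Rpl15 and chr17:27635225-27635314 on the minus strand for Rps10. They are chr3:90213629-90213718 on the minus strand for Rps27, chr9:66946016-66946105 on the plus strand for Rps27l and chr3:28805438-28805527 on the plus strand for Rpl22l1. The Rps27l stretch belongs to one of its annotated starts.

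An annotated start at a C followed by at least 4 bases that are each C or T was found in 13 of the 63 members, or 20.6%, and in 3.01% of all 27025 genes with a window. Such a tract beginning within 10 bases of the start was found in 61.9% of members and 34.4% of all genes. The letters CCGGAAG on either strand, anywhere in the 300-base window, were found in 41.3% of members, 9.93% of all genes and 20.2% of the genes tested here. Rpl22l1 has its tract 3 bases after the annotated start, and Rps6 has one that begins 1 base before it. A match describes letters in a window and shows neither binding nor translation.

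Ribosomal protein mRNA took a smaller share of the activated libraries than of the non-activated ones. The 84 genes held 1.65%, 1.45% and 1.49% of all expected counts in activated libraries 1 to 3, against 1.93%, 2.09% and 2.21% in non-activated libraries 1 to 3. The activated shares averaged 1.53% ± 0.108 and the non-activated shares 2.07% ± 0.142 (SD, n = 3 each), a ratio of 0.739, and the groups did not overlap. Within libraries of the same number the ratio of activated to non-activated was 0.859, 0.694 and 0.676. Small-subunit genes held 0.609% ± 0.0459 of counts in activated and 0.843% ± 0.0584 in non-activated libraries, and large-subunit genes 0.781% ± 0.0537 and 1.07% ± 0.0785. The P stalk genes held 0.120% ± 0.0043 in activated and 0.137% ± 0.0067 in non-activated libraries, the smallest relative difference of the 3 classes, with a ratio of 0.873. In mixed RNA, fewer cells of a type and less RNA per cell cannot be told apart, and a share of counts gives no amount of RNA per cell.

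**Figure D1:**
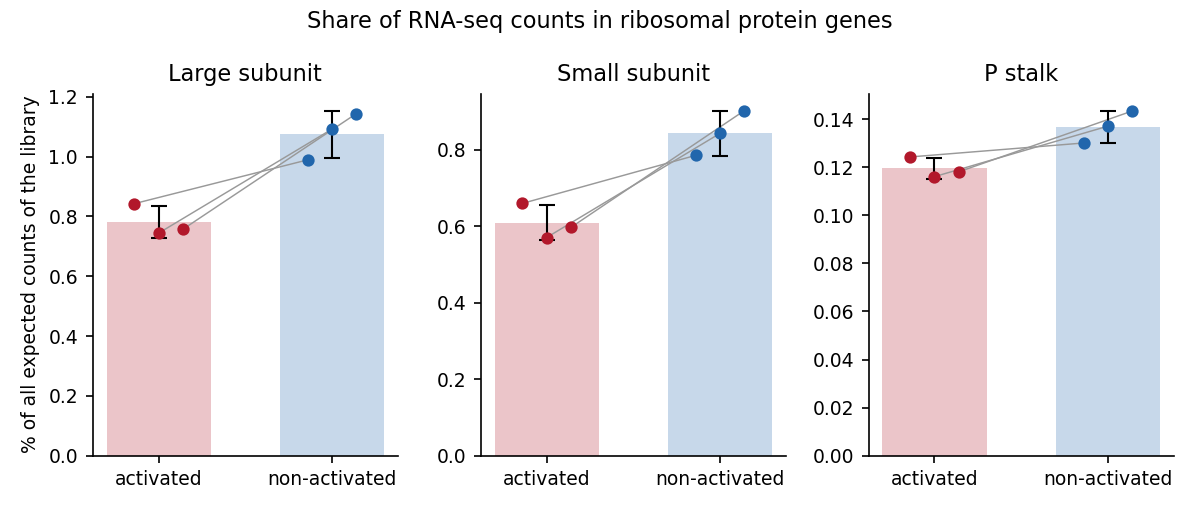
Percentage of all expected counts of a library (vertical axes, from 0) that fell on large-subunit, small-subunit and P stalk genes, for activated (left in each panel) and non-activated libraries. Bars are means, error bars SD over 3 libraries, points single libraries, and grey lines join libraries with the same number. In each panel all 3 activated points lie below all 3 non-activated points.

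The libraries held 21338012 to 27404937 expected counts each. The share of mitochondrially encoded transcripts was 1.80% to 2.12% in the activated libraries, below the 2.20% to 2.56% of the non-activated ones, and their part in the result was not tested. The summed level of 12 dendritic cell markers was 12717 to 15902 CPM (counts scaled to library size) in activated libraries and 13967 to 16557 CPM in non-activated libraries, with Cd209a at or near 0 in every library and Itgax, the gene for CD11c, at 194.4 to 422.4 CPM in activated libraries and 300.3 to 441.1 CPM in non-activated libraries. Of the 11 tested, 5 were higher in activated cells and none lower (edgeR, DESeq2 and unadjusted p alike), and the higher ones included Ccr7 and Cd86. By edgeR the higher ones were 45.5% of the 11, against 15.9% of all genes, while 11.7% of all genes were lower. With libraries of the same number paired, H2-Eb1, an MHC class II gene, was lower as well, or 9.09% of the 11 against 17.2% of all genes. Of 17 T cell markers none was at 0 in all libraries, and their sum ran from 420.5 to 7754 CPM in activated libraries and from 552.3 to 8154 CPM in non-activated libraries. That range came from Trac, a T cell receptor gene, which stood at 7284 CPM in activated library 1 and 7582 in non-activated library 1 and at 2.75 to 27.3 in the other 4. Cd3e, Cd3d and Cd3g, defining genes of T cells, were at or below 1.86 CPM in all 6 libraries. The 15 markers other than Trac and Il7r summed to between 36.7 and 59.6 CPM in activated libraries and between 29.7 and 58.3 CPM in non-activated libraries. Genes within that sum did not run alike. Lck stood at 3.84 to 5.07 CPM in activated and 0.698 to 1.23 CPM in non-activated libraries. Cd28 stood at 9.78 to 21.6 CPM and 17.5 to 42.7 CPM. Of the 9 T cell markers tested, 3 were higher in activated cells and 1 lower by edgeR. Those were 33.3% and 11.1%, against 15.9% and 11.7% of all genes. Sums of 10 macrophage and monocyte markers were 1935 to 3211 CPM in activated libraries and 2822 to 3457 CPM in non-activated libraries. Those of 6 mast cell and basophil markers were 4.41 to 6.86 CPM in activated libraries and 14.2 to 20.5 CPM in non-activated libraries. Nearly all of that was Gata2, which encodes a transcription factor of blood progenitors too, at 4.27 to 6.20 CPM in activated libraries and 14.2 to 20.2 CPM in non-activated libraries, while Cpa3, Fcer1a, Mcpt8, Ms4a2 and Mcpt4 were at or below 0.511 CPM in every library. NK cell, B cell and neutrophil markers summed to at most 25.1, 143.7 and 0.597 CPM in any library. The part of these genes in the results below was not tested.

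Gene by gene, the shift was broad and moderate. After TMM scaling, which sets libraries to a common level over all genes, 55 of the 83 tested members were lower in activated cells, 1 was higher and 27 did not pass an adjusted p of 0.05 (edgeR quasi-likelihood test, adjusted over all genes tested). Of all 13946 genes, 11.7% were lower and 15.9% higher. The members' log2 fold changes had a median of -0.39, or 76.3% of the non-activated level, with quartiles at -0.48 and -0.29, against a median of 0.01 over all genes. Estimates below 0 were found in 77 members, against 49.3% of all genes. All 3 activated libraries lay below all 3 non-activated libraries in 60 members, against 20.7% of all genes. With libraries of the same number paired, 60 members were lower and 2 higher, against 17.2% and 20.0% of all genes.

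Scaling by library totals alone gave 60 lower members, 1 higher and a median of -0.47, against 16.3% of all genes lower and 12.8% higher. The share of all calls that were higher was 57.6% under TMM and 44.1% on library totals, while the median over all genes was -0.07 on library totals. All 55 members lower under TMM were among the 60. Leaving out non-activated library 3 reduced the lower members to 35, against 7.61% of genes tested, and leaving out activated library 1 raised them to 67, against 11.7%. Without both libraries numbered 1, where Trac stood apart, 69 members were lower and 2 higher, with a median of -0.52, against 10.4% of genes lower and 12.9% higher. On the deposited TPM (a level corrected for gene length and library size), tested with limma, 39 members were lower, all among the 55, against 8.12% of all genes.

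**Figure D2:**
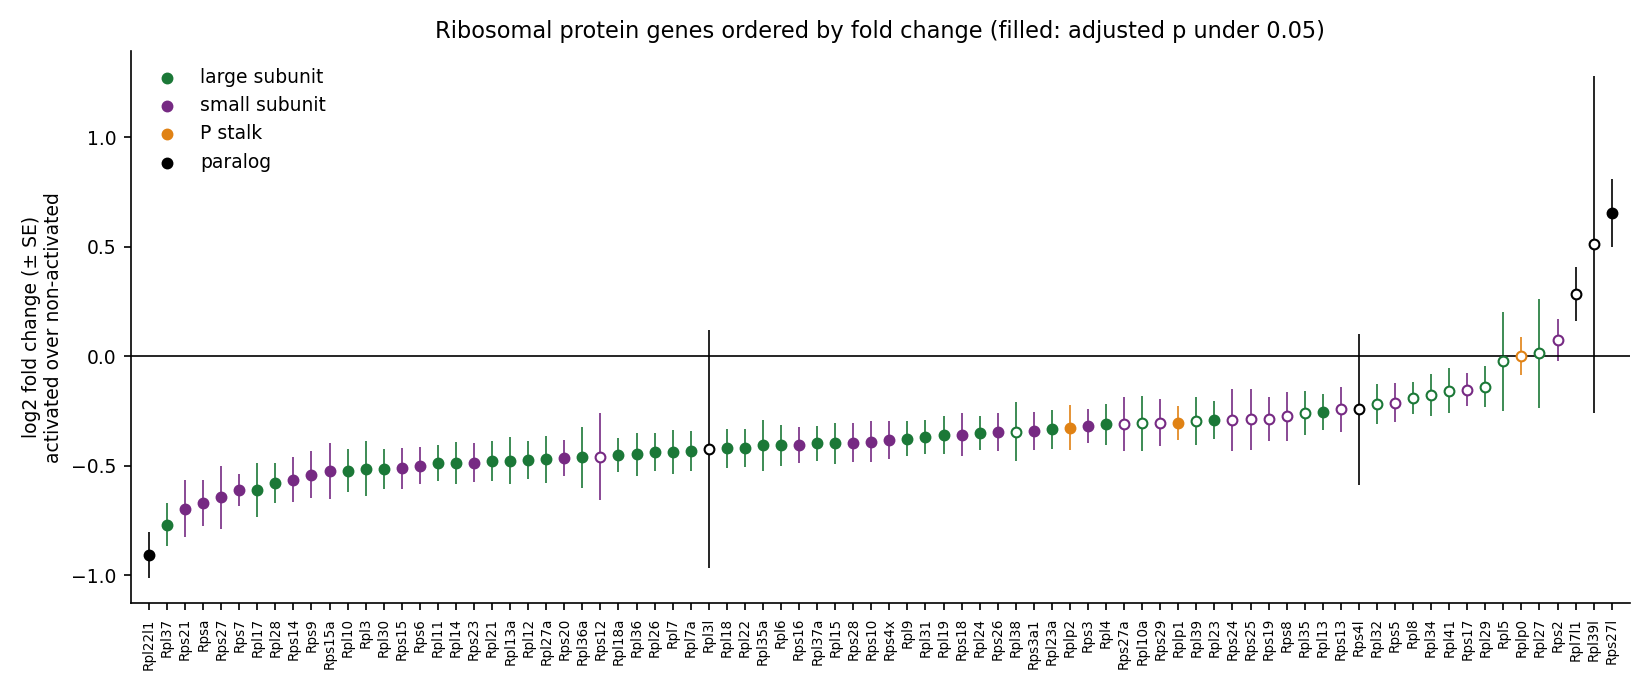
Log2 fold change, activated over non-activated, of 82 of the 83 tested ribosomal protein genes in order of size (vertical axis; horizontal line at 0), with the SE as vertical lines, coloured by class. Filled points passed an adjusted p of 0.05; Rps27l was the filled point above 0, and the longest lines are those of Rpl3l and Rpl39l, which had low counts.

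**Figure D3:**
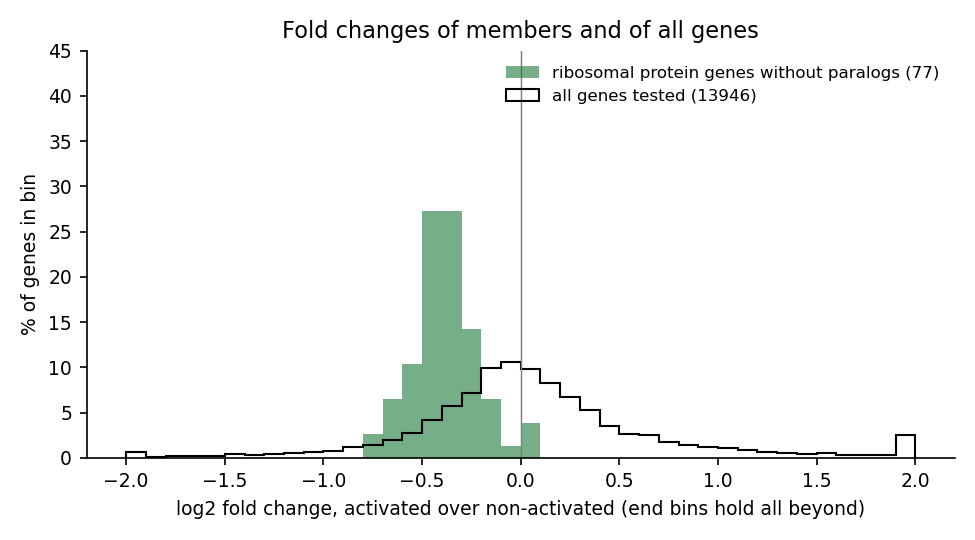
Distribution of log2 fold changes, activated over non-activated (horizontal axis, bins of 0.1), as the percentage of genes in each bin (vertical axis) for the 77 tested members without paralogs (filled) and for all 13946 genes tested (outline). The members sit in a narrow peak below 0, around a median of -0.39, while all genes centre on 0.01 with long tails.

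Small-subunit proteins form the platform that reads the mRNA. Of their 31 genes, 20 were lower in activated cells and 11 did not pass, with a median log2 fold change of -0.39. None was higher by edgeR, by DESeq2 or at an unadjusted p of 0.05. Rpsa, an assembly protein of the small subunit also known as a laminin receptor, had 445, 434 and 471 CPM in activated libraries and 630, 750 and 767 CPM in non-activated libraries. The groups did not overlap, at a log2 fold change of -0.67 ± 0.10 (SE; edgeR adjusted p = 0.00222).

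Rps21, Rps27 and Rps7 were also among the lowest. Rps7, which takes part in maturation of the small-subunit rRNA, was the tightest of them, with 138, 133 and 133 CPM in activated libraries and 194, 207 and 216 CPM in non-activated libraries (log2 fold change -0.61 ± 0.07, edgeR adjusted p = 0.000655). Rps27 had 219, 153 and 160 CPM in activated libraries, against 262, 263 and 307 CPM in non-activated libraries, with activated library 1 above the other 2 of its group (log2 fold change -0.64 ± 0.14, edgeR adjusted p = 0.0111). Rps21 was at -0.69 ± 0.13.

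Rps6, the substrate of S6 kinase downstream of mTOR, had 265, 240 and 233 CPM in activated libraries, against 331, 362 and 350 CPM in non-activated libraries. The groups were separate, and the log2 fold change was -0.50 ± 0.08 (edgeR adjusted p = 0.00303). Rps3, which lines the mRNA entry channel and also acts in DNA repair, fell by less, at -0.32 ± 0.08 (edgeR adjusted p = 0.0188). That call was lost without activated library 2 or non-activated library 2 or 3, with adjusted p-values up to 0.0704.

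Other small-subunit genes lay below 0 without passing. Rps19, required for maturation of the small-subunit rRNA, had 194, 177 and 208 CPM in activated libraries and 209, 244 and 254 CPM in non-activated libraries (log2 fold change -0.29 ± 0.10, edgeR adjusted p = 0.0675). It passed on library totals, at an adjusted p of 0.0365, and with paired libraries, at 0.0291. Rps27a, made as a fusion with ubiquitin, stood at -0.31 ± 0.12, and Rps25, known for its part in translation from internal entry sites, at -0.29 ± 0.14. Both passed without activated library 1, at adjusted p-values of 0.0113 and 0.00186. Rps2 was the only small-subunit gene with an estimate above 0, at 562, 597 and 542 CPM in activated libraries and 509, 587 and 517 CPM in non-activated libraries, which overlapped (log2 fold change 0.08 ± 0.10, edgeR adjusted p = 0.60). On library totals its estimate was 0.00, so no direction can be given.

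Large-subunit proteins surround the peptidyl transferase centre and the exit tunnel. Of their 43 genes, 32 were lower in activated cells and 11 did not pass, with a median of -0.41. None was higher by edgeR, by DESeq2 or at an unadjusted p of 0.05. Rpl37 had 78.8, 67.2 and 68.1 CPM in activated libraries, against 111, 126 and 128 CPM in non-activated libraries. The separation was clear, at a log2 fold change of -0.77 ± 0.10 (edgeR adjusted p = 0.000730). Rpl17 stood at -0.61 ± 0.12 (edgeR adjusted p = 0.00699).

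Rpl3, a protein near the peptidyl transferase centre, had 240, 238 and 185 CPM in activated libraries and 294, 356 and 296 CPM in non-activated libraries (log2 fold change -0.51 ± 0.13, edgeR adjusted p = 0.0173). The call was lost without non-activated library 2, at an adjusted p of 0.0626. Rpl10, one of the last proteins to join the subunit, was lower by a similar measure, at -0.52 ± 0.10 (edgeR adjusted p = 0.00514). Rpl13a, which in human myeloid cells can leave the ribosome and silence inflammatory mRNAs, had 323, 271 and 286 CPM in activated libraries and 363, 428 and 434 CPM in non-activated libraries, with no overlap (log2 fold change -0.48 ± 0.11, edgeR adjusted p = 0.0114). Rpl7 was at -0.44 ± 0.10 and Rpl22 at -0.42 ± 0.09, both lower.

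Rpl5 and Rpl11 bind the 5S rRNA together and, outside the ribosome, restrain Mdm2, the ligase that degrades p53. Rpl11 had 236, 215 and 220 CPM in activated libraries and 292, 328 and 321 CPM in non-activated libraries (log2 fold change -0.49 ± 0.08, edgeR adjusted p = 0.00314). Rpl5 had 9.81, 5.30 and 9.23 CPM in activated libraries and 8.37, 7.6 and 8.84 CPM in non-activated libraries, which overlapped (log2 fold change -0.02 ± 0.23, edgeR adjusted p = 0.954). Its sign turned without activated library 2, to 0.19, and without non-activated library 3, to 0.02. Per length, Rpl5 stood at 14.8 TPM ± 4.57 in activated and 14.7 ± 0.874 in non-activated libraries (SD, n = 3 each). The median over all 84 members was 536.5 TPM in activated and 701.3 in non-activated libraries, so the Rpl5 row held far less than its class, and its value is uncertain where near-identical copies share reads.

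Rpl38, which in mouse embryos helps the translation of Hox mRNAs, had a log2 fold change of -0.34 ± 0.14 that did not pass (edgeR adjusted p = 0.0964). It passed without the filter on low counts, at an adjusted p of 0.0437, and without activated library 1, at 0.0177. Rpl39, a protein of the exit tunnel, did not pass at -0.29 ± 0.11 (edgeR adjusted p = 0.0814), but passed on library totals, at 0.0476, and without activated library 1, at 0.0199. Rpl41, the smallest ribosomal protein, Rps27 and Rps29 had the highest TPM of all members when averaged over all 6 libraries. Rpl41 averaged 1806 TPM ± 163 in activated and 2050 ± 310 in non-activated libraries (SD, n = 3 each), which overlapped, and did not pass (log2 fold change -0.16 ± 0.10 on counts, edgeR adjusted p = 0.295). Rps27 averaged 1476 TPM ± 271 in activated and 2358 ± 318 in non-activated libraries, and Rps29 1378 ± 156 in activated and 1720 ± 159 in non-activated libraries. Rps29 did not pass (log2 fold change -0.30 ± 0.11 on counts, edgeR adjusted p = 0.0718), but passed on library totals, at 0.0376, and with paired libraries, at 0.0402. By group mean the highest in activated cells were Rpl41, Rps27 and Rps29, in that order. In non-activated cells they were Rps27, Rpl41, Rpl13a, at 1823 TPM ± 290, and then Rps29. In both groups the libraries of neighbours in these orders overlapped.

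The P stalk recruits elongation factors to the ribosome through Rplp0 and the Rplp1 and Rplp2 proteins bound to it. Rplp0 had 792, 774 and 787 CPM in activated libraries and 744, 806 and 800 CPM in non-activated libraries. The groups overlapped fully and the log2 fold change was 0.00 ± 0.09 (edgeR adjusted p = 0.988), with estimates between -0.07 and 0.02 over all alternatives. Rplp1 had 305, 285 and 273 CPM in activated libraries and 358, 358 and 348 CPM in non-activated libraries, with no overlap (log2 fold change -0.30 ± 0.08, edgeR adjusted p = 0.0216). Rplp2 was at -0.33 ± 0.10 (edgeR adjusted p = 0.0440). The calls of Rplp1 and Rplp2 were lost on deposited TPM and without some single libraries, with adjusted p-values up to 0.0737 and 0.156.

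The paralogs did not follow one direction. Of the 6 tested, 1 was lower, 1 was higher and 4 did not pass. Each 1 is 16.7% of the 6, near the 11.7% lower and 15.9% higher of all genes. With paired libraries 2 were higher and 1 lower, against 20.0% and 17.2% of all genes. Rps27l, a paralog of Rps27 known as a direct target of p53 in human cells, had 165, 105 and 118 CPM in activated libraries, against 87.9, 78.9 and 79.9 CPM in non-activated libraries. All activated libraries were above all non-activated ones, with activated library 1 the highest (log2 fold change 0.65 ± 0.16, edgeR adjusted p = 0.0154). The call was lost without non-activated library 2 or 3, at adjusted p-values of 0.0591 and 0.0635.

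Set against its counterpart per length, Rps27l stood at 40.9%, 37.4% and 40.9% of the TPM of Rps27 in activated libraries, against 18.1%, 16.4% and 14.1% in non-activated libraries. The log2 ratio of the pair was -1.33 ± 0.07 in activated and -2.63 ± 0.18 in non-activated cells (SD, n = 3 each), a difference of 1.30. The exact two-sided permutation test gave p = 0.1, the smallest that 3 libraries against 3 allow, and 0.2 after adjustment over the 6 pairs. The difference was 1.20 to 1.38 when single libraries were left out. As each library's ratio is taken within that library, scaling does not enter it.

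Rpl7l1, a paralog of Rpl7 known from nucleolar assembly of the large subunit, had 98.8, 82.1 and 83.8 CPM in activated libraries and 85.0, 65.1 and 67.2 CPM in non-activated libraries. The groups overlapped, and the log2 fold change of 0.28 ± 0.12 did not pass (edgeR adjusted p = 0.124). It passed with paired libraries, at an adjusted p of 0.00987, and was higher in the activated library of all 3 numbers. Its TPM was 8.58%, 8.57% and 8.39% of that of Rpl7 in activated libraries and 6.25%, 4.61% and 4.82% in non-activated libraries, a log2 difference of 0.72 with no overlap (exact two-sided permutation p = 0.1, adjusted 0.2).

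Rpl22l1, a paralog of Rpl22 that takes its place in the ribosome when Rpl22 is missing in mice, went the other way. It had 18.4, 15.5 and 16.5 CPM in activated libraries, against 28.9, 34.1 and 31.8 CPM in non-activated libraries. This was the lowest fold change of all members, at a log2 value of -0.91 ± 0.11 (edgeR adjusted p = 0.000493), or 0.533 of the non-activated level. On deposited TPM the call was lost, at an adjusted p of 0.108. Its TPM was 316, 63.9 and 216 in activated libraries and 408, 449 and 409 in non-activated libraries. The deposited effective length of the gene was 353.6 bases in activated library 2 and 82.9 to 120.2 bases in the other 5, so the TPM of that library stands apart where its count does not. The log2 TPM ratio of Rpl22l1 to Rpl22 was -1.42 ± 1.12 in activated and -0.42 ± 0.13 in non-activated cells (exact two-sided permutation p = 0.1, adjusted 0.2). The difference of -1.01 became -0.37 without activated library 2, and -0.49 on expected counts.

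**Figure D4:**
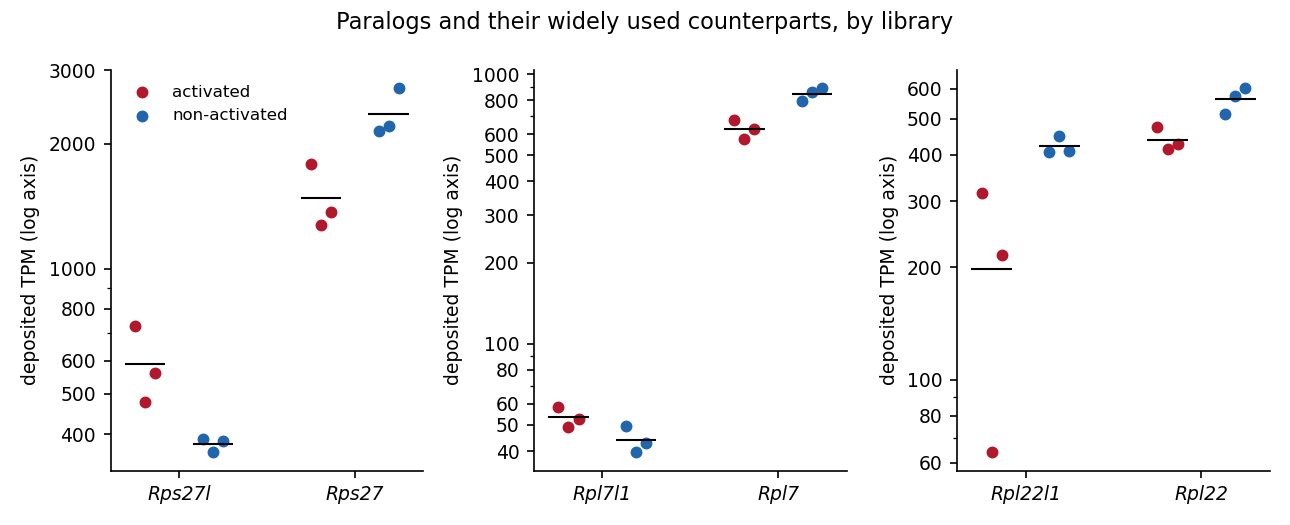
Deposited TPM (vertical axes, log scale, a different range in each panel) of Rps27l with Rps27, Rpl7l1 with Rpl7, and Rpl22l1 with Rpl22, with activated libraries to the left of non-activated ones for each gene. Points are single libraries and bars their means over 3. Rps27l is above its non-activated values in all 3 activated libraries while Rps27 is below, and the low Rpl22l1 point at 63.9 TPM is activated library 2.

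Rpl3l, Rpl39l and Rps4l were the lowest tested members per length. Rpl3l, a muscle paralog of Rpl3, was at 0.620 TPM ± 0.321 in activated and 0.863 ± 0.399 in non-activated libraries (SD, n = 3 each). Rpl39l was at 2.02 TPM ± 1.40 in activated and 1.40 ± 0.969 in non-activated libraries, and Rps4l at 3.46 ± 0.995 and 3.95 ± 1.40. All 3 overlapped between groups, and no difference was detectable at these counts. Their ratios to Rpl3, Rpl39 and Rps4x overlapped as well (exact two-sided permutation p = 0.9, 0.5 and 0.7).

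Reads of several members could be split with near-identical copies. RSEM gave fractional counts to 55 members in at least 1 library, counting a value within 0.005 of a whole number as whole. The row Rpl27-ps3 held 753% of the counts of Rpl27, Rps12-ps3 417% of those of Rps12, Rpl10-ps3 70.7% of those of Rpl10 and Rpl39-ps 50.2% of those of Rpl39. Rpl27 alone had 18.2, 9.22 and 17.8 CPM in activated libraries and 12.1, 16.5 and 16.4 CPM in non-activated libraries, at a log2 fold change of 0.01 ± 0.25. With its pseudogene row added, Rpl27 was at -0.24 ± 0.08 (edgeR adjusted p = 0.0589). Rps12 was at -0.46 ± 0.20 alone and -0.31 ± 0.12 with its row added, and passed in neither form when libraries were not paired. With paired libraries Rps12 alone was lower, at an adjusted p of 0.034. Rpl39 passed once its row was added, at -0.34 ± 0.09 (edgeR adjusted p = 0.0244), and Rpl10 was at -0.62 ± 0.08. Over all members, adding these rows gave 56 lower in place of 55. Copies whose symbols do not carry the ps suffix were not added.

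Across the 83 members, fold change had little relation to length or level. Over these genes, which share their libraries and are not independent replicates, Pearson's r between log2 fold change and effective length was 0.192 and Spearman's rho 0.047. With mean TPM, r was -0.306 and rho 0.00. Of the 13 members whose annotated start matched the tract, 11 were lower, at a median of -0.41, and of 49 tested members without the match 32 were lower, at a median of -0.38. Of the 20 members mutated in human Diamond-Blackfan anaemia, 13 were lower, or 65.0%, at a median of -0.39. None was higher by edgeR, DESeq2 or an unadjusted p of 0.05. For comparison, 55 of all 83 tested members were lower, or 66.3%, while 11.7% of all genes were lower and 15.9% higher.

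Genes that share features with the members were counted from lists. Of 4 further ribosome-associated genes, 3 were lower, while 11.7% of all genes were lower. The 3 included Fau, a fusion that yields Rps30, and Rack1, a scaffold on the small subunit. With single libraries left out, the lower count ran from 1 to 4. It was 1 without activated library 2, activated library 3 or non-activated library 3, against 10.0%, 8.95% and 7.61% of genes tested. It was 4 without activated library 1, against 11.7% of genes tested. Fau was at -0.53 ± 0.14 and Rack1 at -0.27 ± 0.08, with adjusted p-values up to 0.0919 and 0.133 when single libraries were left out. Rpl36al did not pass at -0.23 ± 0.10.

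The non-ribosomal TOP mRNAs encode translation factors and chaperones that carry the same start tract. Of 22, 12 were lower, 10 did not pass and none was higher by edgeR, DESeq2 or an unadjusted p of 0.05, at a median log2 fold change of -0.31. That was 54.5% of the list, against 11.7% of all genes. Without non-activated library 3, 8 were lower, or 36.4% against 7.61% of genes tested. The list holds Fau and Rack1 too. Eef1a1, the factor that brings tRNA to the ribosome, had 1440, 1319 and 1283 CPM in activated libraries, against 2082, 2530 and 2573 CPM in non-activated libraries. It was the lowest of the list, at -0.83 ± 0.12 (edgeR adjusted p = 0.00133). Eif3f, a subunit of the initiation factor eIF3, was at -0.49 ± 0.08 and Eif4b, which helps the initiation helicase, at -0.45 ± 0.07, both lower.

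Ribosome assembly factors, which process rRNA and build the subunits in the nucleolus, were more often higher than lower. Of 61 found and tested, 17 were higher in activated cells, 2 were lower and 42 did not pass, at a median of 0.22. The higher genes were 27.9% of the list, against 15.9% of all genes, and the lower ones 3.28%, against 11.7%. Rrp9, which binds the U3 RNA, had 25.6, 24.0 and 23.1 CPM in activated libraries, against 14.4, 15.5 and 15.4 CPM in non-activated libraries (log2 fold change 0.69 ± 0.09, edgeR adjusted p = 0.000977). Nhp2, a protein of small nucleolar particles, was at 0.70 ± 0.12, and Wdr75, which acts in small-subunit processing, at 0.74 ± 0.14. Eif6, which keeps large subunits from joining too early, was at 0.46 ± 0.09. The 2 lower genes, named after their values were seen, were Nob1 at -0.39 ± 0.10 and Rrp1b at -0.49 ± 0.13. The higher count was 14 on library totals, or 23.0% against 12.8% of all genes, and 11 on deposited TPM, or 18.0% against 11.1%. It was also 11 without non-activated library 1 and without both libraries numbered 1, against 12.5% and 12.9% of genes tested. Without non-activated library 3 it was 8, or 13.1%, which lay near the 11.0% of genes tested. The lower count was 2 by DESeq2 and at an unadjusted p of 0.05 too, and ran from 0 to 4 by edgeR when single libraries were left out, with 1 lower without non-activated library 1, against 8.29% of genes tested.

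RNA polymerase I and its factors, which transcribe the rRNA genes, had 3 genes higher, 3 lower and 10 not passing of 16. Each 3 is 18.8% of the list, against 15.9% of all genes higher and 11.7% lower. With paired libraries 5 were higher, or 31.2% against 20.0% of all genes. Polr1a, the largest subunit, was higher at 0.62 ± 0.11 and Cd3eap, another subunit, at 0.43 ± 0.10. Taf1d, part of the promoter factor SL1, was lower at -0.46 ± 0.11 and Polr1c, shared with RNA polymerase III, at -0.32 ± 0.08. On deposited TPM the calls of Polr1a and Polr1c were lost, at adjusted p-values of 0.0808 and 0.188. Without non-activated library 3, 1 gene was higher by edgeR, or 6.25% against 11.0% of genes tested, and 0 were lower, against 7.61%. Without non-activated library 2, 0 were lower, against 7.37% of genes tested. The DESeq2 test on all libraries gave 3 lower, as did an unadjusted p of 0.05.

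Among 23 genes of mTOR signalling and TOP mRNA control, 3 were higher and 2 lower, or 13.0% and 8.7%, near the 15.9% and 11.7% of all genes. With paired libraries 5 were higher and 4 lower, or 21.7% and 17.4%, near 20.0% and 17.2% of all genes. On library totals 2 were higher and 4 lower, against 12.8% and 16.3% of all genes. Pdcd4, an inhibitor of the initiation helicase eIF4A, had 61.0, 65.7 and 63.2 CPM in activated libraries, against 19.7, 18.2 and 22.9 CPM in non-activated libraries (log2 fold change 1.64 ± 0.10, edgeR adjusted p = 2.36e-05). Sesn3, which restrains mTOR complex 1, had 16.9, 12.4 and 12.0 CPM in activated libraries, against 62.1, 51.3 and 55.5 CPM in non-activated libraries (log2 fold change -2.03 ± 0.15, edgeR adjusted p = 5.18e-05). Castor1, an arginine sensor of that pathway, was lower at -1.71 ± 0.16, and its relative Castor2 higher at 0.66 ± 0.15. Larp1, the repressor that binds TOP tracts, was higher at 0.27 ± 0.07 (edgeR adjusted p = 0.0291) and did not pass on library totals. Mtor itself was at -0.01 ± 0.08 and did not pass.

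**Figure D5:**
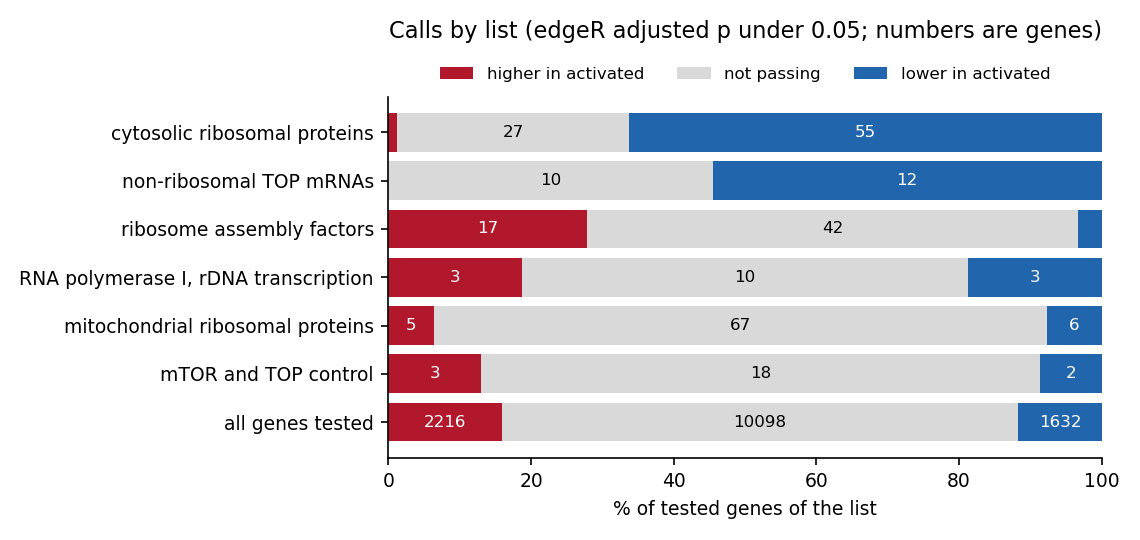
Percentage of tested genes (horizontal axis) of each list that were higher in activated cells (red), did not pass (grey) or were lower (blue) at an edgeR adjusted p of 0.05, with gene numbers in the bars. The bars show 55 of 83 ribosomal protein genes and 12 of 22 TOP mRNAs lower and 17 of 61 assembly factors higher, beside 1632 lower and 2216 higher of all 13946 genes.

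The Myc family, whose members drive or oppose transcription of ribosome genes, had 4 of 10 tested genes lower, against 11.7% of all genes, while 15.9% of all genes were higher. All 4 encode rivals of Myc: Mxd4 at -0.87 ± 0.11, Mxd1 at -0.32 ± 0.07, Mxi1 at -0.45 ± 0.10 and Mnt at -0.46 ± 0.10. On deposited TPM 2 of these were lower. Myc itself had 16.2, 6.72 and 5.84 CPM in activated libraries and 5.41, 5.50 and 4.54 CPM in non-activated libraries, with activated library 1 apart from the rest. It did not pass (log2 fold change 0.90 ± 0.37, edgeR adjusted p = 0.104), so that 0 of the family were higher by edgeR, with 2 at an unadjusted p of 0.05, 1 by DESeq2 and 1 with paired libraries.

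Of 9 genes in the 5S particle and p53 response, which include Rpl5 and Rpl11, 2 were higher and 3 lower, or 22.2% and 33.3%, against 15.9% and 11.7% of all genes. Cdkn1a, a cell-cycle inhibitor that p53 induces, had 758, 860 and 949 CPM in activated libraries and 522, 586 and 568 CPM in non-activated libraries (log2 fold change 0.62 ± 0.11, edgeR adjusted p = 0.00430). Trp53 was at 0.35 ± 0.08, a call lost on deposited TPM, without non-activated library 1 or 3, and without both libraries numbered 1. Bbc3, a p53 target that promotes cell death, was lower at -1.07 ± 0.13, as was Zmat3 at -0.44 ± 0.12, whose call was lost on deposited TPM and without non-activated library 2 or 3. Mdm2 had a log2 fold change of -0.05 ± 0.10 and did not pass.

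Mitochondrial ribosomal proteins, which build the separate ribosome of mitochondria, had a median of -0.04 over 78 genes, against -0.39 over the cytosolic members. Of the 78, 5 were higher, 6 lower and 67 did not pass, while 15.9% of all genes were higher and 11.7% lower. All activated libraries lay below all non-activated ones in 20 of the 78 and in 60 of the 83 cytosolic members, while the share over all genes was 20.7%. The lower count was 19 on library totals, where 16.3% of all genes were lower, 15 with paired libraries, against 17.2%, and 2 without non-activated library 2, against 7.37%. The higher count was 2 without activated library 1 or 2, against 13.7% and 12.3% of genes tested. It was 2 without non-activated library 1 or 3 as well, against 12.5% and 11.0% of genes tested. Mrps6 was higher, with 55.6, 48.7 and 49.3 CPM in activated libraries and 24.1, 27.6 and 24.0 CPM in non-activated libraries (log2 fold change 1.02 ± 0.10, edgeR adjusted p = 0.000169). Mrpl38 was higher at 0.62 ± 0.10, while Mrpl9 at -0.53 ± 0.09 and Mrpl45 at -0.34 ± 0.07 were lower.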

How the data were processed

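RNA-seq was measured in 6 libraries, each built per the labels' protocols with NEBNext Ultra reagents (200 ng of RNA as input) and read as single 60-nt reads. Strand is not stated, so reads of overlapping antisense genes cannot be told apart. The submitters' processing notes name GRCm38; the aligner used for RNA-seq is, in the sources used here, not given. Per the file headers, the authors deposited gene tables in RSEM layout with an expected count, a TPM and an FPKM per gene (41813 genes). RSEM assigns reads that match several genes in fractions, which bears on ribosomal proteins and their copies. No test was run on the deposited FPKM. Symbols were matched for 41597 gene IDs, and rows with none took at most 0.05% of a library. Coordinates and promoter sequences are RefSeq's on GRCm38.p6; no protein sequences were used here.

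Expected counts were rounded, and 13946 genes passed edgeR's filterByExpr. With R 4.3.3 and edgeR 4.0.16, TMM factors were computed and group was tested by quasi-likelihood, with Benjamini-Hochberg adjustment over all genes at 0.05. CPM are TMM-scaled, except for markers and shares. The SE is the log2 fold change divided by the root of F. Alternatives were DESeq2 1.42.0, limma 3.58.1 on log2 of deposited TPM plus 1 or 0.1 (a scale that understates changes of low genes), library totals, other size factors, no filter, pseudogene rows added, each library left out, and a replicate block. The scripts were tested on simulated data.

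With 21338012 to 27404937 counts per library and a biological coefficient of variation of 16.9%, the spread between libraries limited all but low genes. Libraries of a group had correlations of 0.976 to 0.986 in log2 CPM, and no 2 libraries agreed within sampling noise. Deviations from group means correlated at 0.398, 0.313 and 0.187 between same-numbered libraries and at -0.315 to 0.04 between others. The replicate numbers in the titles may therefore pair the libraries, as judged from the data alone, since no label explains them. Deviations within a group sum to 0, so these correlations are not independent and do not settle the pairing. The main fit and the permutation tests did not use it.

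The members and lists were chosen with earlier results of these data known. Named genes were 27 members chosen for their roles, the 8 highest and 8 lowest among members past the threshold (1 passed on the higher side), the 3 members highest and the 3 tested members lowest in TPM, and up to 4 genes with the smallest p of each list. Others were named after their values were seen: Rps2, Rpl27, Rps12, Larp1, Mtor, Myc, Mdm2, Nob1, Rrp1b, Rpl36al, H2-Eb1, Gata2, Lck and Cd28. Some genes that these rules took are not reported here, though counts and medians include them. Riok2, the one listed gene with no row under that symbol, was not used.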

Additional observations from a re-analysis of the deposited data

How the results depend on the processing

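Over 17 alternatives, 33 members were lower in every one, and the median over members stayed below 0. For the 63 named genes, 969 of 1071 comparisons kept direction and call, 53 lost the call, 34 gained it and 15 changed sign. The members called higher numbered 2 with a replicate block, with a replicate block on library totals and without both libraries numbered 1, an alternative chosen, like the block on library totals, after seeing the data. Leaving out single libraries gave 35 to 67 lower and 0 to 2 higher members, 1061 to 1673 lower and 1586 to 1956 higher genes in all, and a member median of -0.48 to -0.36, which was -0.52, with 69 lower members, without both libraries numbered 1. With a replicate block 60 members were lower, and among those 63 genes the block changed the calls of Rpl7l1, Rps19 and Rps29; of the members and pathway genes named besides them, it called Rps12 lower and Myc higher; on library totals the block gave 3232 lower genes in all. The member share differed by -0.54 percentage points on counts, at a ratio of 0.739, and by -0.62 to -0.47 with single libraries left out. On deposited TPM, which weights short genes more by construction, the member share was 4.82% in activated and 6.30% in non-activated libraries. That was a difference of -1.48 percentage points at a ratio of 0.766. The Rpl3l to Rpl3 ratio, 0.02 as reported, was -0.04 (-0.0449) on expected counts and with pseudogene rows added, and -0.35 to 0.63 with single libraries left out; that of Rps4l to Rps4x ran from -0.10 to 0.43. Rpl5 ran from -0.20 to 0.19 with single libraries left out, at 0.19 without activated library 2 and 0.02 without non-activated library 3. Rplp0 was at -0.0749 on library totals, -0.0126 with DESeq2 size factors, -0.0027 with TMM without members, -0.0222 without a filter, -0.0125 by DESeq2, -0.0015 on TPM with either pseudocount, -0.0739 with the block on library totals, -0.0591 without both libraries numbered 1 and -0.0345 to 0.0204 with single libraries left out. The causes were not tested. Rpl3l, Rpl39l and Rps4l had low counts, at which no difference was detectable.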
